A study of Mus musculus with 11 samples.

Results

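Primary myoblasts lacking the circadian clock gene Bmal1 were compared after 6 h at 1% oxygen (hypoxia) and at 21% oxygen (normoxia). Both groups came from Bmal1-/- mice, 3 libraries each, and together they make up 6 of the 11 libraries of the study. The members are defined by genotype and treatment. They, the comparison and the gene lists were chosen with earlier results of these data known. The cells were grown from the tibialis anterior muscle of C57BL/6 mice about 8 weeks old, in Ham's F-10 to which 20% serum and basic fibroblast growth factor (2.5 ng/ml) had been added. The other 5 libraries held wild-type myoblasts handled alike, 2 in normoxia and 3 in hypoxia, and entered here to pool the estimate of spread and to compare the 2 genotypes. The genotype label Bmal1-/- is read here as a deletion in the whole animal. On that reading the muscle that gave the cells also lacked the gene. The labels give neither the deleted part of the gene nor whether libraries came from separate mice or cultures, so the p-values measure how far these libraries scatter, and that scatter may be technical. Of the genes measured, 14729 had a normalized read count of at least 10 in at least 2 libraries and were tested.

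Cells sense oxygen through prolyl hydroxylases that mark the alpha subunits of hypoxia-inducible factor (HIF) for destruction by the VHL ubiquitin ligase. When oxygen is short the subunits persist, pair with ARNT and bind DNA at a short core, ACGTG or GCGTG, which switches on genes of glucose uptake, glycolysis, lactate export, vessel growth and mitochondrial turnover. BMAL1 is a protein of the same bHLH-PAS family as HIF and ARNT. With CLOCK it binds the E-box CACGTG and drives the circadian feedback loop. Myoblasts are the dividing precursors of muscle fibres, which rely on glycolysis to a large extent.

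The deleted gene was examined first. Arntl, the symbol under which Bmal1 is listed (ENSMUSG00000055116, GRCm38 chromosome 7, bases 113207465 to 113314126), still gave reads in the knockout libraries. Knockout normoxia gave 109, 117 and 98.8 normalized reads of Arntl, and knockout hypoxia 128, 134 and 128. In the wild-type libraries it was between 264 and 328, so each knockout library lay below each wild-type library. The change of Arntl with hypoxia in the knockout cells, 0.26 on the log2 scale (SE 0.09), did not pass the test (adjusted p = 0.136).

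Reads assigned to genes numbered 18707697 to 21138175 in the knockout normoxia libraries and 23027613 to 25731223 in the knockout hypoxia libraries, so each hypoxia library was deeper. Between 20.3% and 21.6% of these reads came from mt-Rnr2, a ribosomal RNA of the mitochondrion. Muscle markers were abundant: Myod1, the myogenic master regulator, stood at 7983 to 8977 over the 6 libraries and Pax7, the satellite cell factor, at 1123 to 1549. Markers of other cells were sparse or mixed. Sums in this paragraph take in every listed marker present in the data, also those not tested. The 9 endothelial markers summed to 67.0 to 87.9 in normoxia and 62.7 to 69.7 in hypoxia. None of the 5 tested was called. The 5 leukocyte markers summed to 18.6 to 40.2 and 24.5 to 42.0, also with no call among the 2 tested. Among tested fibroblast markers 1 of 7 rose (Cd34), and among tested adipocyte markers 1 of 2 (Lpl). Of 9 tested pericyte and smooth muscle markers 2 fell (Acta2 and Tagln). Summed levels in normoxia and hypoxia were 2496 to 2845 and 2716 to 3197 for the fibroblast markers, 261 to 273 and 310 to 375 for the adipocyte markers and 33130 to 33410 and 29690 to 29890 for the pericyte and smooth muscle markers. The Lpl call was lost without any 1 of normoxia libraries 1 and 2 and hypoxia libraries 1 and 3 (adjusted p 0.0589 to 0.0752) and the Tagln call without any 1 of libraries 1 and 2 of either group (0.0717 to 0.118). Some defining markers had few reads in every knockout library. The leukocyte genes Lyz2, Itgam and Cd79a reached at most 3.07, the endothelial Cdh5 9.08 and the adipocyte Adipoq 2.05 normalized reads. Other members of these 3 lists had more, as the sums show. The part of these cells in the results was not tested. In bulk RNA, fewer cells of a type and less RNA per cell cannot be told apart.

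Hypoxia raised 464 genes and lowered 138 in the knockout myoblasts at an adjusted p under 0.05 (limma, Benjamini-Hochberg adjustment over all tested genes), 3.15% and 0.937% of those tested and 4.09% together. Increases were the larger changes: 84 genes rose at least 2-fold and 6 fell that far. The median log2 change was 0.45 among the risen genes and -0.29 among the fallen, against -0.005 over all genes. In each called gene all 3 hypoxia libraries lay on the same side of all 3 normoxia libraries; over all genes, 11.9% had such a gap upward and 10.7% downward. The balance of directions depended on scaling. Scaling each library by its total without mitochondrial genes gave 372 risen and 244 fallen, which took the risen share of calls from 77.1% to 60.4% and the median of all genes to -0.04. With reads thinned to the smallest library, 434 rose and 112 fell. Leaving out any 1 knockout library but normoxia library 3 gave 304 to 328 risen and 64 to 75 fallen genes.

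The 12 largest increases among called genes whose higher group averaged 50 or more and whose symbol is not a predicted one included known oxygen-responsive genes. Adm, which encodes the vasodilator peptide adrenomedullin, was at 73.2, 77.5 and 63.0 normalized reads in normoxia and at 667, 648.5 and 548 in hypoxia. Every hypoxia library was thus far above every normoxia library, a rise of 3.11 on the log2 scale (SE 0.12, adjusted p = 6.58e-09) or 8.62-fold. Ankrd37, an ankyrin-repeat protein, went from 22.3, 25.0 and 35.8 to 272, 216 and 212 (log2 change 3.05, SE 0.19, adjusted p = 2.51e-07). Mpp2, a membrane scaffold of the MAGUK family, had few reads in normoxia, at 12.4, 7.50 and 17.4 and reached 114, 79.0 and 99.4 (2.93, SE 0.31, adjusted p = 6.55e-05). Car9, the extracellular carbonic anhydrase that handles acid at the cell surface, was even across the normoxia libraries at 18.6, 17.5 and 18.4 and spread over 172, 105 and 120 in hypoxia (2.77, SE 0.30, adjusted p = 8.27e-05). The keratin gene Krt19 rose from 11.2, 23.7 and 6.51 to 101, 69.0 and 65.6 (2.57, SE 0.41, adjusted p = 0.00225). At these low counts the groups stayed apart but the spread within normoxia was wide.

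Transcripts with many more reads rose nearly as far. Bnip3, a receptor that tags mitochondria for autophagy, was at 1517, 1524 and 1330 in normoxia and 9814, 7757 and 7571 in hypoxia (log2 change 2.52, SE 0.12, adjusted p = 1.95e-08). Egln3, an oxygen-sensing prolyl hydroxylase, went from 832, 796 and 827 to 4831, 4057 and 3910 (2.38, SE 0.10, adjusted p = 8.70e-09). Ak4, a mitochondrial adenylate kinase, went from 447, 555 and 478 to 2465, 2186 and 2265 (2.23, SE 0.09, adjusted p = 6.80e-09). In all 3 genes the lowest hypoxia library was several times the highest normoxia library.

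**Figure D1:**
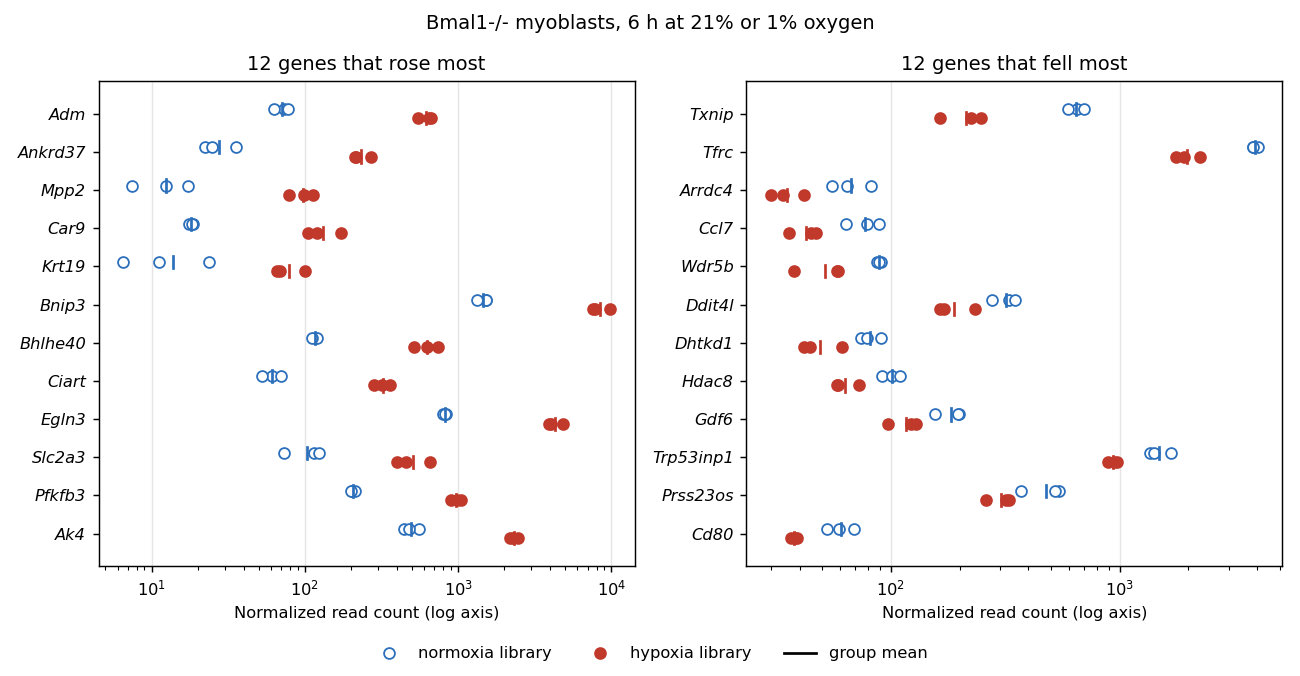
Normalized read counts (log axis) of the 12 genes that rose most (left) and the 12 that fell most (right), among called genes whose higher group averaged 50 or more and whose symbol is not a predicted one, in each Bmal1-/- library; open points are normoxia, filled points hypoxia and short lines group means. The groups do not overlap in any of the 24 genes, and the gaps on the left, from Adm to Ak4, are wider than those on the right.

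The promoters of the leading genes were read for the 2 letter patterns of the HIF core, ACGTG and GCGTG, on either strand, because these genes moved together. The table of RefSeq promoters used here (GRCm38.p6) had entries for 9 of the 12 genes; Krt19, Bhlhe40 and Slc2a3 were not analysed here. In the 250 bases before a start, ACGTG was present for 8 of the 9 genes and either pattern for all 9. Over all RefSeq promoters of that length, counted by start, the shares were 16.6% for ACGTG and 38.6% for either pattern. Counted by gene, they were 25.3% and 61.6% over tested genes with a promoter. By gene, a match at any start counts, so genes with several starts have more chances of a match. Among risen genes the shares were 35.6% and 69.3%, among genes risen at least 2-fold 56.2% and 77.1%, and among fallen genes 24.0% and 62.5%. The E-box CACGTG contains ACGTG, so the patterns overlap. Among genes with a promoter it occurred for 10% of tested genes, 11.8% of risen genes, 16.7% of those risen at least 2-fold and 15.6% of fallen genes. Of the 9 leading genes with a promoter, 4 held it. A match describes letters only and is not a measured binding site.

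The stretches around the matches are shown for the 6 genes with the largest change that have an entry, 5′ to 3′ on the gene's strand, because they hold the patterns counted above. Capitals mark both patterns. On the opposite strand ACGTG reads as the letters CACGT, whereas the other pattern reads as CACGC.
Adm, chr7:110627552-110627622, plus strand: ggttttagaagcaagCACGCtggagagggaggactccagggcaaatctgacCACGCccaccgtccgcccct
Ankrd37, chr8:45999983-46000020, minus strand: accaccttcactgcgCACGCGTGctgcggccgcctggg
Mpp2, chr11:102088675-102088709, minus strand: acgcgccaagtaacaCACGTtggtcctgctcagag
Car9, chr4:43506993-43507025, plus strand: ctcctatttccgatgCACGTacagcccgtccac
Bnip3, chr7:138909522-138909638, minus strand: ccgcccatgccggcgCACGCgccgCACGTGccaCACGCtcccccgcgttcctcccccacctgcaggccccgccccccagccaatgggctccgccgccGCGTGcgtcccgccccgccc
Ciart, chr3:95882252-95882401, minus strand: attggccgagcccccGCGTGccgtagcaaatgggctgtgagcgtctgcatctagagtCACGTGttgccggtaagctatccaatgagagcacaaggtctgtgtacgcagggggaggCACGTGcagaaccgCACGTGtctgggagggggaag
The match in Car9 lies 18 bases before the start and that in Mpp2 179 bases before the 1 of its 2 starts that has a match. The printed stretch of Adm holds 2 matches and that of Bnip3 5. In Ankrd37 the closest pair of its 4 matches is shown, and in Ciart all 7, as 1 GCGTG and 3 copies of the E-box, each of which counts once on either strand.

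Genes that sense oxygen changed in part. Of 9 tested members of this list 2 rose and none fell, with a median log2 change of -0.001. Besides Egln3, the main HIF prolyl hydroxylase Egln1 rose from 596, 537 and 571 to 1555, 1381 and 1287 (1.30, SE 0.09, adjusted p = 1.22e-06). Hif1a, the HIF alpha subunit itself, was at 3416, 3674 and 3273 in normoxia and 3597, 3449 and 3288 in hypoxia. These groups overlapped, and the log2 difference of -0.00 had a 95% interval from -0.12 to 0.11. The other alpha subunit gene tested, Epas1, had 3.88 to 10.9 normalized reads in the 6 libraries, and its difference of -0.21 had a wide 95% interval, -1.51 to 1.09. Vhl was 0.28 higher on the log2 scale without passing the test (adjusted p = 0.213).

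Genes of glucose entry and phosphorylation rose: 8 of 13 tested members were called up, none down, and the list median was 0.55. Slc2a1, the basal glucose transporter, was at 776, 707 and 718 in normoxia and 2960, 2570 and 2459 in hypoxia (1.86, SE 0.09, adjusted p = 2.64e-08, 3.62-fold). The high-affinity transporter Slc2a3 moved further, from 73.2, 115 and 124 to 654, 400.5 and 460 (2.27, SE 0.25, adjusted p = 9.78e-05). Both transporters showed a clear gap between groups. Pfkfb3 makes the activator of phosphofructokinase, and it went from 204, 212 and 200 to 1040, 984.5 and 902 (2.24, SE 0.08, adjusted p = 6.58e-09). Pfkl, a phosphofructokinase subunit, went from 2135, 2126 and 2162 to 5133, 4852 and 4716 (1.19, SE 0.05, adjusted p = 1.13e-08). Hexokinase 2 (Hk2) rose by a log2 value of 1.07 (SE 0.08), and Hk1 by 0.54 (SE 0.08). The muscle transporter Slc2a4 and the muscle phosphofructokinase Pfkm, at 0.22 and 0.17, did not pass.

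Below phosphofructokinase, 8 of 13 tested enzymes rose, none fell, and the median was 0.58. The called enzymes had many reads, so moderate changes were tightly measured. Tpi1 went from 7073, 7004 and 6899 to 14100, 12670 and 12760 (0.91, SE 0.06, adjusted p = 8.72e-07) and Pgam1 rose by 0.90 (SE 0.05). Ldha, which turns pyruvate into lactate, was at 21830, 21710 and 21360 in normoxia and 35850, 33360 and 33700 in hypoxia (0.66, SE 0.04, adjusted p = 3.73e-07). Gapdh, often taken as a reference gene, went from 43500, 40910 and 41470 to 49710, 47650 and 47690, a small rise of 0.20 (SE 0.04, adjusted p = 0.00807). The groups stayed apart in each of these genes. The 5 enzymes without a call were mostly other isoforms: Pgam2, Eno3 and Ldhb lay between -0.10 and -0.02, and Aldoc and Eno2 at 0.68 and 0.58 with few reads. Each of the 2 glycolysis lists kept 8 calls when any knockout library was left out.

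Lactate and acid export rose in 5 of 7 tested members and fell in 1, with a median of 0.32. Slc16a3, the lactate exporter MCT4, was at 1137, 1093 and 1317 in normoxia and 4553, 4157 and 4552 in hypoxia (1.91, SE 0.08, adjusted p = 6.80e-09). Its chaperone Bsg rose by 0.31 (SE 0.06, adjusted p = 0.00929). The bicarbonate importer Slc4a7 moved the other way, from 3567, 3847 and 3559 to 2938, 3159 and 2920 (-0.28, SE 0.05, adjusted p = 0.00415). The acid-handling Car12 (0.83, adjusted p = 0.0439) and the lactate carrier Slc16a1 (0.18, adjusted p = 0.0233) rose with less certainty. Their adjusted p became 0.0625 to 0.163 and the count of risen members dropped to 3 on leaving out normoxia library 1 or 3 or any 1 hypoxia library.

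At the entry to the mitochondrion 1 gene stood out from a list that otherwise moved little. Pdk1, the kinase that shuts pyruvate dehydrogenase, was at 933, 997 and 969 in normoxia and 4070, 3487 and 3280 in hypoxia (1.90, SE 0.11, adjusted p = 1.89e-07, 3.72-fold). Pdp1, the phosphatase that opens the complex again, fell by 0.29 (SE 0.06, adjusted p = 0.0109), though not without hypoxia library 3 (adjusted p = 0.0579) or normoxia library 2 (0.0539). The other 10 of 12 tested members had no call, and the median was -0.07. Of 19 TCA cycle genes 1 fell, Dlst at -0.14 (adjusted p = 0.0318), and that call was lost on leaving out any 1 knockout library (adjusted p 0.0723 to 0.113). None of 20 nuclear genes for respiratory chain subunits and their assembly was called, although 18 of them lay below 0 (median -0.06).

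Genes that alter the chain itself were called in 4 of 9 cases, all upward. Ndufa4l2, an inducible complex I relative, went from 36.0, 27.5 and 27.1 to 141, 92.6 and 89.2 (1.78, SE 0.25, adjusted p = 0.000941). Cox4i2, the low-oxygen isoform of a cytochrome oxidase subunit, had 8.74 to 15.2 reads in normoxia and 28.7 to 41.7 in hypoxia (1.46, SE 0.28, adjusted p = 0.0097). Its common isoform Cox4i1 was at -0.02. The oxidase assembly factor Higd1a rose by 0.88 (SE 0.10, adjusted p = 0.000116) and the matrix protease Lonp1 by 0.29 (SE 0.06, adjusted p = 0.00746). Mitophagy receptors added 2 risen genes of 12 tested, Bnip3 and its relative Bnip3l at 0.44 (SE 0.08, adjusted p = 0.00683), while the list median was -0.07.

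Transcripts of the mitochondrial genome fell in 4 of 13 cases and rose in none. The mt-Nd1 transcript was at 49860, 46240 and 45910 in normoxia and 33670, 34860 and 36710 in hypoxia (-0.43, SE 0.06, adjusted p = 0.00125). The small mt-Atp8 went from 5328, 5257 and 4703 to 3484, 3171 and 3206 (-0.63, SE 0.07, adjusted p = 7.94e-05). In both, the highest hypoxia library lay under the lowest normoxia library. The falls of mt-Nd2 (-0.38, adjusted p = 0.0149) and mt-Cytb (-0.27, adjusted p = 0.0145) were lost without normoxia library 1, hypoxia library 1 or hypoxia library 2, with adjusted p from 0.0534 to 0.0733. The remaining members scattered: mt-Co2 and mt-Co3 were 0.32 and 0.28 higher and mt-Nd4l 0.95 lower on the log2 scale, all with overlapping groups and no call.

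**Figure D2:**
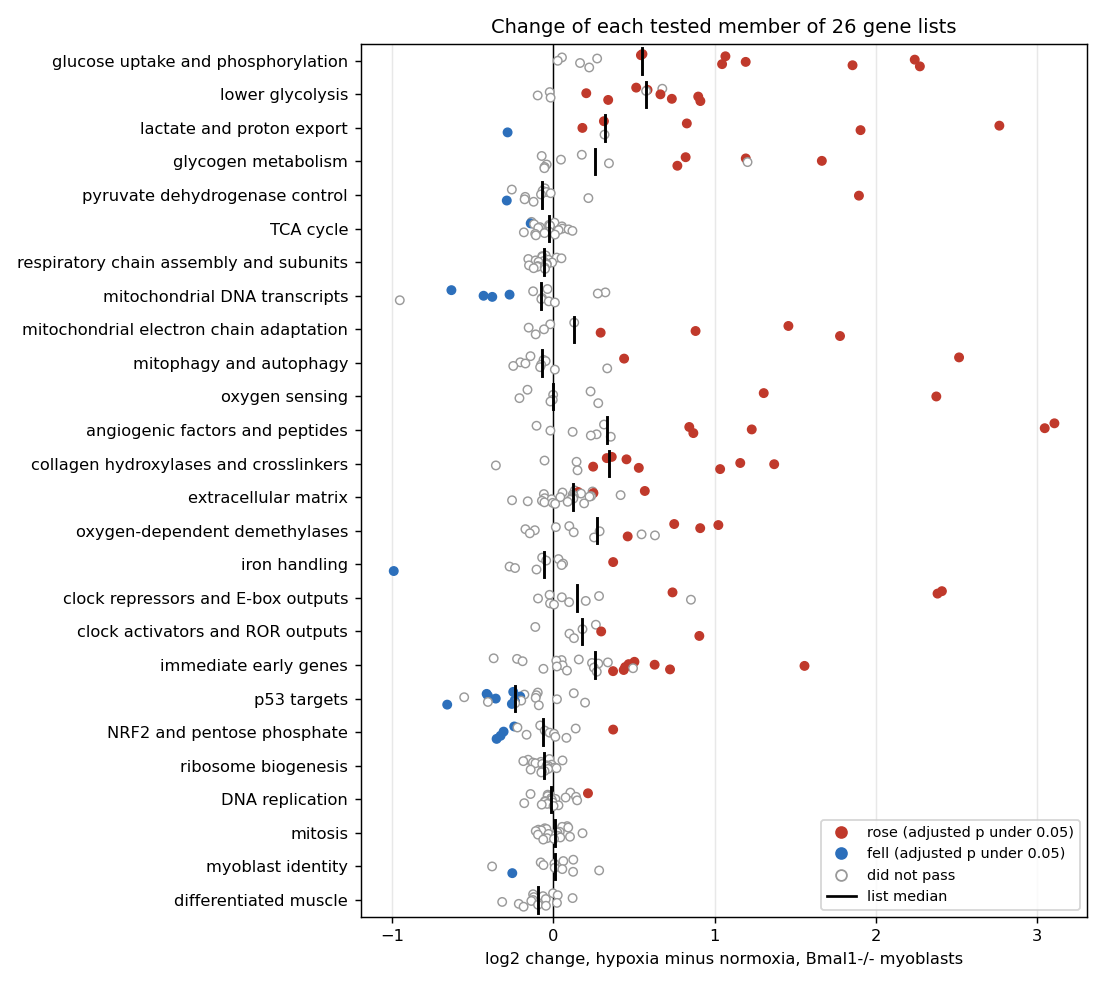
The log2 change (hypoxia minus normoxia) of each tested member of 26 gene lists in Bmal1-/- myoblasts; red points rose, blue points fell, open points did not pass, and the black bar is the list median. Both glycolysis lists have 8 filled red points and medians of 0.55 and 0.58, the p53 list has 9 blue points, and DNA replication and mitosis cluster at 0.

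Glycogen genes rose in 4 of 12 cases (median 0.26). Gys1, which builds glycogen, went from 783, 771 and 1031 to 1627, 1484 and 1423 (0.82, SE 0.12, adjusted p = 0.00125) and Pgm1, which feeds it, rose by 1.19 (SE 0.09, adjusted p = 2.06e-06). The targeting subunit Ppp1r3b rose from 59.6, 48.7 and 27.1 to 166, 139 and 115 (1.67, SE 0.25, adjusted p = 0.00132). The breakdown enzyme Pygl rose by 0.77 (adjusted p = 0.0187), a call lost without hypoxia library 1 (0.0824), normoxia library 1 (0.0787) or normoxia library 2 (0.0563). Synthesis and breakdown genes were thus both among the risen.

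Lipid storage showed the same partial pattern, with 3 of 11 members risen and none fallen (median 0.09). Hilpda, an inhibitor of the triglyceride lipase ATGL, went from 235, 226 and 239 to 529, 490 and 468 (1.08, SE 0.09, adjusted p = 4.71e-06). G0s2, which inhibits the same lipase, rose by 0.36 (SE 0.06, adjusted p = 0.00293). The lipoprotein receptor Vldlr rose by 0.47 (adjusted p = 0.017), which was lost without any 1 of hypoxia libraries 1 and 2 and normoxia libraries 1 and 2 (adjusted p 0.0589 to 0.0763). Of the NAD and adenylate genes 2 of 13 rose, Ak4 and Nampt, which limits the pace of NAD salvage (0.73, SE 0.09, adjusted p = 0.000195).

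Secreted vessel factors rose in 5 of 12 cases with a median of 0.34. Vegfa, the principal vessel growth factor, was already abundant in normoxia at 2194, 2236 and 2508 and reached 4339, 4144 and 4169 (0.87, SE 0.06, adjusted p = 9.13e-07, 1.83-fold). Apln, the peptide apelin, went from 1023, 1011 and 829 to 2339, 2165 and 2191 (1.23, SE 0.09, adjusted p = 1.39e-06). Angptl4, a lipase inhibitor of the angiopoietin-like family, rose by 0.84 (SE 0.14, adjusted p = 0.00341). Ankrd37 is also on this list although it encodes no secreted factor. Vegfb, Vegfc, Pgf, Angpt1, Angpt2 and Edn1 had no call.

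Collagen processing was among the lists with most calls, 8 of 12 risen and none fallen (median 0.35). The prolyl hydroxylases that stabilise the collagen helix led: P4ha1 went from 2768, 2776 and 2650 to 6617, 5885 and 5830 (1.16, SE 0.06, adjusted p = 1.27e-07) and P4ha2 from 267, 305 and 331 to 921, 715 and 710 (1.37, SE 0.14, adjusted p = 4.41e-05). Plod2, a lysyl hydroxylase that sets the type of crosslink, rose by 1.03 (SE 0.08, adjusted p = 3.27e-06). Lox, the crosslinking oxidase, rose from 1348, 1449 and 1381 to 1779, 1767 and 1824 (0.36, SE 0.04, adjusted p = 0.000178). The groups were apart in all 4. The matrix proteins that these enzymes act on moved less, with 3 of 27 risen and a median of 0.12. Those calls (Col1a1 0.57, Col4a2 0.25, Col3a1 0.15) were fragile: leaving out 1 knockout library left 0 to 3 of 27, with 0 on leaving out normoxia library 2 or hypoxia library 2 and 1 on leaving out normoxia library 1, hypoxia library 1 or hypoxia library 3.

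Enzymes that strip methyl groups with the help of oxygen rose in 4 of 14 cases (median 0.27). Kdm3a, a histone H3K9 demethylase, went from 921, 943 and 869 to 1941, 1827 and 1793 (1.02, SE 0.05, adjusted p = 6.60e-08). Kdm4b rose by 0.91 (SE 0.12, adjusted p = 0.000454) and Jmjd6 by 0.75 (SE 0.06, adjusted p = 2.06e-06). Tet2, which oxidises methylcytosine in DNA, rose by 0.46 (SE 0.09, adjusted p = 0.00736), and Tet1 at 0.63 did not pass (adjusted p = 0.143).

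Among clock genes, 3 E-box repressors or outputs rose. Bhlhe40, which encodes the repressor DEC1, was at 117, 120 and 112 in normoxia and 738, 628.5 and 517 in hypoxia (2.41, SE 0.12, adjusted p = 2.64e-08). Ciart, a repressor of CLOCK-BMAL1, went from 60.8, 52.5 and 69.5 to 320, 361.5 and 283 (2.38, SE 0.15, adjusted p = 3.18e-07). Bhlhe41, the DEC2 gene, rose by 0.74 (SE 0.11, adjusted p = 0.00194). The list held 12 tested genes, of which none fell (median 0.15). Per1 had 33.5, 52.5 and 115 at 21% oxygen and 104, 109 and 109 at 1%. The third normoxia library overlapped the hypoxia group, and the difference of 0.85 did not pass (adjusted p = 0.16). Per2 at 0.20, Dbp at 0.28 and Nr1d1 at 0.05 did not pass either. In the list that joins clock activators with outputs of the ROR nuclear receptors, 2 of 7 tested genes rose. The nuclear receptor Rora went from 160, 127 and 120.5 to 277, 228 and 258 (0.91, SE 0.13, adjusted p = 0.00116). Nfil3 rose by 0.30 (adjusted p = 0.0451), a call lost on leaving out any 1 knockout library except hypoxia library 3 (adjusted p 0.0527 to 0.172). Clock was at -0.11 with no call.

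Among called genes whose higher group averaged 50 or more and whose symbol is not a predicted one, the largest fall was that of Txnip, which restrains glucose uptake and binds thioredoxin. It was at 649, 700 and 594 in normoxia and 248, 225 and 165 in hypoxia (-1.62, SE 0.13, adjusted p = 3.54e-06). All hypoxia libraries were well under the normoxia libraries. Its relative Arrdc4 fell by 0.91 on the log2 scale (adjusted p = 0.0209), lost without hypoxia library 1 or 2 or normoxia library 1 or 2 (0.061 to 0.101). Arrdc3, of the same arrestin family, moved up from 603, 743 and 600 to 1150, 1164 and 771 (0.65, SE 0.13, adjusted p = 0.0118), lost without hypoxia library 1 or 2 or normoxia library 1 (0.0579 to 0.0592). This list of 6 therefore held 2 fallen and 1 risen gene.

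Of 10 iron handling genes 1 fell and 1 rose (median -0.06). Tfrc, the transferrin receptor, was at 3847, 4030 and 3823 in normoxia and 1769, 1913 and 2238 in hypoxia (-0.99, SE 0.08, adjusted p = 7.03e-06), with a wide gap between the groups. Hmox1, which frees iron from haem, rose by 0.37 (SE 0.07, adjusted p = 0.00585). The ferritin genes Fth1 and Ftl1 were at 0.03 and -0.04 with no call.

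A pair of regulators upstream of the growth kinase mTOR moved apart. Ddit4 (REDD1), an mTOR inhibitor, went from 237, 191 and 232 to 633, 543 and 573 (1.40, SE 0.11, adjusted p = 2.67e-06). Its paralog Ddit4l fell from 329, 349 and 278 to 165, 171 and 234 (-0.76, SE 0.15, adjusted p = 0.0121), with adjusted p of 0.0531 to 0.0608 on leaving out hypoxia library 1 or 2 or normoxia library 1 or 2. The other 9 genes of the list had no call.

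Targets of the tumour suppressor p53 held the most fallen members of the 47 lists, 9 of 21, with none risen and a median of -0.24. Trp53inp1, a stress-induced autophagy and death factor, went from 1353, 1682 and 1414 to 944, 890 and 975 (-0.66, SE 0.07, adjusted p = 0.000124). Eda2r, a death receptor relative, fell from 2148, 2064 and 1948 to 1559, 1496 and 1597 (-0.40, SE 0.05, adjusted p = 0.000219). Btg2, a growth inhibitor, fell by 0.41 (SE 0.07, adjusted p = 0.00283), and Mdm2, the ligase that degrades p53, by 0.36 (adjusted p = 0.0252). Cdkn1a, the target that arrests the cell cycle, was at 1741, 1739 and 2074 and then 1763, 1685 and 1700, with overlapping groups and no call (-0.10, 95% interval -0.25 to 0.04). The count depended on single libraries. It was 3 without normoxia library 2 or hypoxia library 2, 4 without normoxia library 1 or hypoxia library 1, and 6 and 8 without hypoxia library 3 and normoxia library 3. The Mdm2 call was lost without normoxia library 2 or 3 or hypoxia library 1 or 2 (adjusted p 0.0511 to 0.111).

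In the list that joins antioxidant targets of NRF2 with pentose phosphate genes, 4 of 14 fell and 1 rose, the latter Hmox1. The median was -0.07, with 9 members below 0 and 5 above. Txnrd1, the cytosolic thioredoxin reductase, went from 12220, 12840 and 12020 to 9214, 9548 and 10320 (-0.35, SE 0.06, adjusted p = 0.00334) and Nqo1 fell by 0.31 (SE 0.06, adjusted p = 0.00741). Srxn1 (-0.33, adjusted p = 0.0157) and Gclc (-0.24, adjusted p = 0.0372) fell too, but both calls were lost without normoxia library 1, hypoxia library 1 or hypoxia library 2 (adjusted p 0.0706 to 0.144), which left 2 fallen genes. Gclc was also lost without normoxia library 2 (0.0917) or 3 (0.0782).

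Stress programmes outside these gave few calls at 6 h. Among 16 endoplasmic reticulum genes 1 rose, the oxidase Ero1l, from 1153, 1193 and 1117 to 3587, 2914 and 2700 (1.40, SE 0.12, adjusted p = 6.35e-06), while the chaperone Hspa5 was at -0.03. None of 14 heat shock genes was called. In the integrated stress response 1 of 15 rose (Vldlr) and 1 fell (Mthfd2, -0.22, adjusted p = 0.0442), the latter lost on leaving out any 1 knockout library (adjusted p 0.075 to 0.141). Cholesterol synthesis and sensing had 1 call in 18, the sterol carrier Stard4, which rose from 153, 165 and 139 to 243, 228 and 221 (0.60, SE 0.10, adjusted p = 0.00304).

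Immediate early genes rose in 8 of 24 cases and fell in none (median 0.26). Ier3 led, from 200, 194 and 181 to 622, 529.5 and 549 (1.56, SE 0.09, adjusted p = 1.20e-07). The AP-1 members Fosl2 (0.63, SE 0.08) and Jun (0.45, SE 0.06) and the zinc finger gene Klf2 (0.72, SE 0.11) followed. Fos at 0.24 and Egr1 at -0.19 had no call. The count was between 6 and 8 on leaving out 1 library.

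Proliferation genes gave few calls. Of 20 mitosis genes none was called (median 0.01), and of 20 DNA replication genes 1 was, Cdt1 at 0.22 (adjusted p = 0.0444), lost on leaving out any 1 knockout library (adjusted p 0.0526 to 0.167). Genes that brake the cycle rose in part, 4 of 19 in the list of cyclins and inhibitors. Mxi1, an antagonist of MYC, went from 243, 200 and 229 to 692, 603 and 549 (1.45, SE 0.12, adjusted p = 7.28e-06), and the atypical cyclin Ccng2 and the inhibitor Cdkn1b rose by 0.67 (SE 0.07) and 0.45 (SE 0.07). Cdkn2a rose by 0.30 (adjusted p = 0.031), not without any 1 of hypoxia libraries 1 to 3 and normoxia libraries 1 and 2 (adjusted p 0.055 to 0.129). Of 20 ribosome biogenesis genes none was called, and 17 lay below 0 (median -0.06).

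Muscle identity genes gave 1 call. Myod1 was at 8715, 7983 and 8917 in normoxia and 8352, 8429 and 8977 in hypoxia, with overlapping groups and a log2 difference of 0.01 (95% interval -0.11 to 0.12) that was negative under the scaling without mitochondrial genes. Pax7 was 0.28 higher with the groups apart but no call (adjusted p = 0.0966), and the differentiation factor Myog was at -0.21 (adjusted p = 0.209). The adhesion molecule Vcam1 fell from 4647, 4752 and 4400 to 3916, 3928 and 3724 (-0.25, SE 0.04, adjusted p = 0.00495), and it was the call among 11 myoblast genes. None of 15 genes of differentiated muscle was called (median -0.09).

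Signals between cells gave scattered calls. The chemokines Ccl7 (89.4, 78.7 and 64.0 to 35.9, 47.2 and 45.1; -0.84, SE 0.16, adjusted p = 0.00746) and Ccl2 (-0.58, SE 0.10, adjusted p = 0.00429) fell, and the cytokine Mif rose by 0.44 (SE 0.05, adjusted p = 6.91e-05), 3 calls in 13. Among growth factors and receptors Igf1r (0.42, SE 0.08), Hbegf (0.39, SE 0.06) and Met (0.20, SE 0.04) rose, 3 of 22, Met not without hypoxia library 2 (adjusted p = 0.0616). The Notch ligand Jag2 (0.42) and Wnt5a (0.26) rose among 21 Notch and Wnt genes, Wnt5a not without any 1 of hypoxia libraries 1 and 3 and normoxia libraries 1 and 2 (adjusted p 0.065 to 0.0994). In the TGF-beta, BMP and CCN list Id2 rose by 0.27 and Ccn2 fell by 0.34, 2 calls in 20, Ccn2 not without hypoxia library 1 or 3 or normoxia library 2 (0.0579 to 0.0873).

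Most called genes were outside every list, 372 of the risen and 107 of the fallen. Among the risen with the smallest adjusted p, Plekha2 went from 1069, 1156 and 1055 to 2429, 2352 and 2134 (1.07, SE 0.06, adjusted p = 2.01e-07). Alkbh5, the RNA demethylase that removes m6A with the help of oxygen, went from 1522, 1579 and 1634 to 2736, 2666 and 2597 (0.76, SE 0.05, adjusted p = 2.27e-07). The mitochondrial protein gene Fam162a (1.10, SE 0.09), the secreted hormone gene Stc1 (1.71, SE 0.13), Prelid2 (1.77, SE 0.15), Nrn1 (0.98, SE 0.08), the small GTPase gene Rhob (0.52, SE 0.05) and Rlf (0.49, SE 0.04) rose too. Among the fallen by the same rule, S100a11 went from 1572, 1395 and 1412 to 1139, 1127 and 1087 (-0.38, SE 0.05, adjusted p = 0.000798). The RNA-binding muscle factor Rbm24 fell by 0.33 (SE 0.05), the Golgi protein gene Tmem165 by 0.29 (SE 0.05), Ddias by 0.33 (SE 0.05), the mitotic gene Ckap2 by 0.27 (SE 0.05), the hyaluronan receptor Cd44 by 0.25 (SE 0.04) and Zfp568 by 0.23 (SE 0.04). The small nuclear RNA gene Rnu1b2 fell by 0.51 (SE 0.08), but it has near-identical copies and its reads are uncertain.

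Among the 12 largest falls by the same rule, Wdr5b, Dhtkd1, Hdac8, Gdf6, Prss23os and Cd80 fell by 0.65 to 0.80 on the log2 scale with adjusted p from 0.0106 to 0.0479. Each lost its call on leaving out at least 1 knockout library. For Gdf6 that was normoxia library 2 (adjusted p = 0.0532); for Wdr5b normoxia library 1 or 2 or hypoxia library 1 (0.0536 to 0.0635); for Hdac8 normoxia library 2 or 3 or hypoxia library 1 or 3 (0.0645 to 0.0859). Prss23os lies opposite Prss23. The libraries were stranded, but whether the counting used strand is not stated, so the reads of Prss23os may include some of Prss23. Its call was lost without any knockout library but normoxia library 2 (0.0732 to 0.178), that of Dhtkd1 without any but hypoxia library 3 (0.0593 to 0.123), and that of Cd80 without any of the 6 (0.0539 to 0.126). Leaving out 1 knockout library at a time, 244 of the 464 risen and 34 of the 138 fallen genes kept their calls throughout, among them all 12 leading risen genes.

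Replication-dependent histone genes, singled out after their values were seen, moved together outside the lists. They supply histones for newly made DNA, and their messages end in a stem-loop, not a poly(A) tail. In the knockout cells 38 of 61 tested genes rose and none fell, 59 lay above 0 and the median was 0.35. Reads of these near-identical copies cannot be assigned with certainty, so sums by class are given. Counts of single histone genes carry that limit. The 17 H2A genes summed to 17830, 17120 and 20930 in knockout normoxia and to 29960, 27530 and 29610 in knockout hypoxia. In wild-type cells the sums were 24990 and 20550 at 21% oxygen and 23280, 22110 and 25150 at 1%. The knockout groups did not overlap, the wild-type groups did, and the knockout normoxia sums lay mostly below those of the wild type. In knockout cells the sums of the other classes moved up less in proportion, also without overlap. From normoxia to hypoxia, H3 went from 22520 to 27610 to between 31440 and 33240, and H4 from 42280 to 47770 to between 52110 and 56170. H2B went from 31800 to 32790 to between 36630 and 41150, and H1 from 32090 to 32420 to between 33510 and 36940. Leaving out 1 knockout library left 31 to 37 risen histone genes, and a fit with no variance trend 21. By class, 14 of 17 H2A, 10 of 12 H3, 8 of 13 H4, 6 of 14 H2B and none of 5 H1 genes rose.

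Hist1h2ac had the smallest adjusted p of the histone genes, at 887, 922 and 984.5 in knockout normoxia and 1609, 1496 and 1629 in knockout hypoxia (0.76, SE 0.07, adjusted p = 3.33e-05). Hist1h2ai rose by 1.79 (SE 0.24) and Hist1h2ah by 1.51 (SE 0.18). In wild-type cells none of the 61 histone genes was called, and their median was 0.08. The difference between genotypes was above 0 for 58 of 61, with a median of 0.29. It reached an unadjusted p under 0.05 upward for 40 of them, where 3.01% of all genes did, but no histone gene passed after adjustment. Hist1h2ac, at a difference of 0.59 (95% interval 0.35 to 0.83), had an adjusted p of 0.529.

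**Figure D3:**
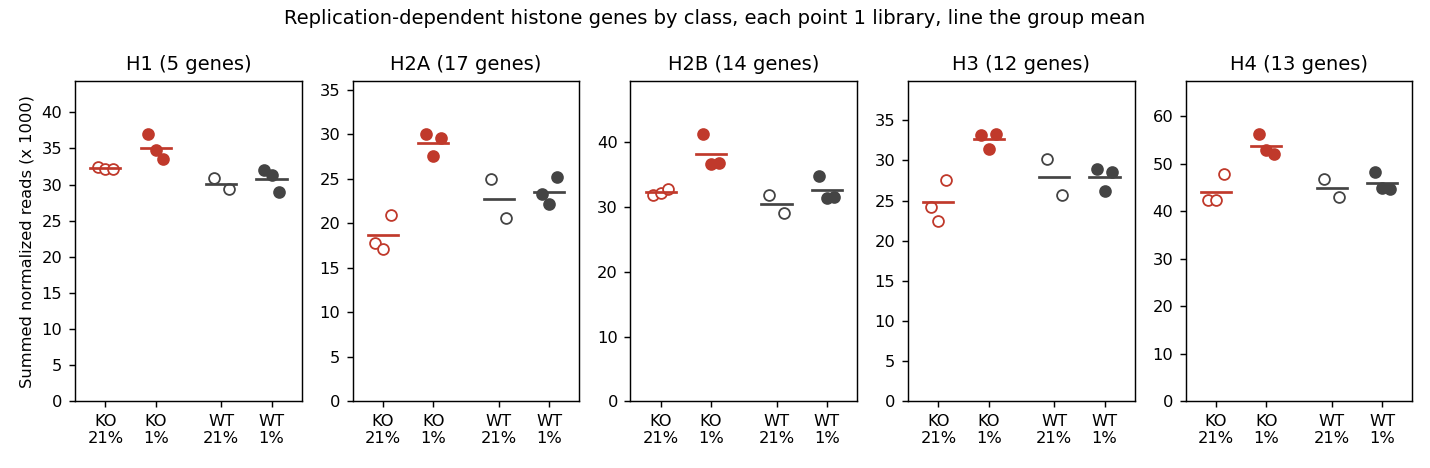
Summed normalized reads (axis in units of 1000, from 0) of replication-dependent histone genes of each class, KO for Bmal1-/- and WT for wild-type cells at 21% and 1% oxygen; each point is a library and each line a group mean. In H2A the knockout libraries rise from 17120 to 20930 in normoxia to between 27530 and 29960 in hypoxia, while the wild-type groups overlap.

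The knockout and wild-type responses were compared as the difference between the 2 changes, tested gene by gene. In wild-type cells 251 genes rose and 69 fell, 1.7% and 0.468% of those tested, but with 2 normoxia libraries that comparison was less precise (median SE 0.11 against 0.10), so the counts do not show a weaker response. Of 14729 genes 1 identifier differed between the genotypes after adjustment (0.00679% upward, 0 downward), an entry of Gm23925. At an unadjusted p under 0.05 the counts were 444 upward (3.01%) and 340 downward (2.31%). DESeq2 on recovered reads called 4 upward (Gm23925, Nol4l, Hist1h2ac and Hist1h2ah) and 1 downward (Gm24497), and edgeR called none in either direction.

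For most leading genes the 95% intervals of the change overlapped between the genotypes. Adm rose by 3.11 in knockout and 3.33 in wild-type cells, a difference of -0.23 with a 95% interval from -0.62 to 0.16. Bhlhe40 rose by 2.41 against 1.84 and the difference, 0.57 (0.20 to 0.95), had an unadjusted p of 0.00578 and an adjusted p of 0.871. It stood at 366 and 372 in wild-type normoxia and 1151 to 1493 in wild-type hypoxia, so the wild-type level was above the knockout level in both conditions. Ciart rose by 2.38 against 1.86 (difference 0.52, interval 0.05 to 1.00, adjusted p = 0.917). Hilpda rose less in the knockout, 1.08 against 1.65 (difference -0.57, interval -0.85 to -0.29, adjusted p = 0.598), as did Kdm3a (difference -0.30, interval -0.47 to -0.13, adjusted p = 0.727).

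Several genes called in the knockout were close to 0 in the wild type. Stard4 was at 233 and 220 in wild-type normoxia and 212 to 253.5 in wild-type hypoxia (difference 0.55, interval 0.23 to 0.87, adjusted p = 0.729). Ddit4l had a wild-type change of 0.02 (difference -0.78, interval -1.27 to -0.29, adjusted p = 0.854) and Hdac8 of 0.17 (difference -0.84, interval -1.31 to -0.36, adjusted p = 0.702). Tmem165 had one of 0.01 (difference -0.30, interval -0.46 to -0.15, adjusted p = 0.598). None of these differences passed the adjusted test, so the responses were not shown to differ.

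**Figure D4:**
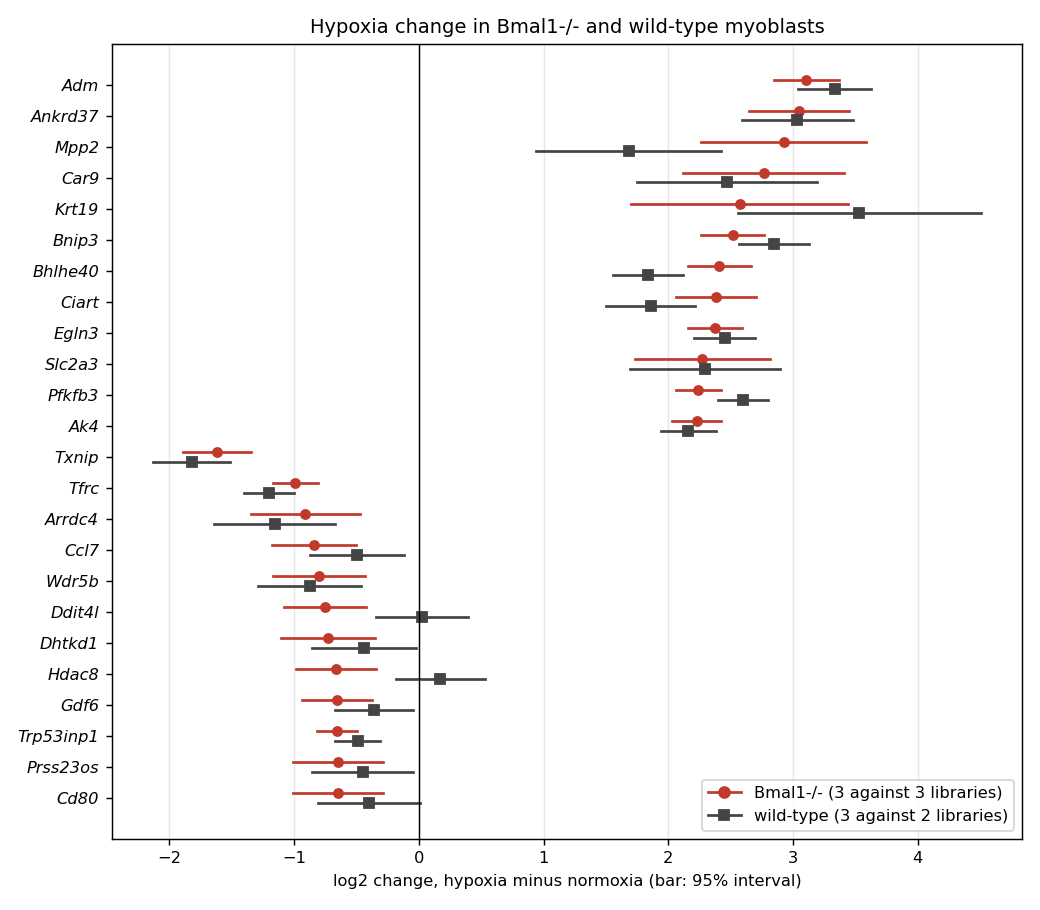
The log2 change with hypoxia of the same 12 risen and 12 fallen genes in Bmal1-/- cells (red circles), beside the change in wild-type cells (grey squares), with 95% intervals. Intervals of the genotypes overlap for most genes, Adm at 3.11 and 3.33 among them. Those of Bhlhe40 at 2.41 and 1.84, Ddit4l at -0.76 and 0.02 and Hdac8 at -0.67 and 0.17 do not overlap. The differences of these genes did not pass the adjusted test.

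Wide spread marked 1 gene with many reads, chosen after its values were seen. Lars2, the mitochondrial leucyl-tRNA synthetase gene, was at 34240, 36320 and 14330 in normoxia and 110400, 50220 and 202500 in hypoxia (1.99, SE 0.46, adjusted p = 0.0271). The hypoxia libraries differed among themselves by about as much as the groups did. Its call was lost without normoxia library 3 (adjusted p = 0.0841), hypoxia library 1 (0.0804) or hypoxia library 3 (0.11). Whether all these reads came from the Lars2 message was not tested.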

How the data were processed

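Stranded total RNA libraries were made from 1 µg of RNA, per the labels' protocols. The submitters' processing notes name bcl2fastq, STAR, Picard, HTSeq, RSEM, DESeq2 and the mm10 build, without versions; which tool counted reads is not given in the sources used here. The authors deposited normalized counts (signal: each library's reads scaled by its own size factor) for 22104 gene identifiers, and 0 columns were left unused. Whole reads were recovered for 100% of values within 0.01 read. Pairs of libraries within the knockout groups differed by more than counting error (chi-square per degree of freedom 5.14 to 22.6), so no pair was the same library sequenced again. These values do not show whether libraries shared a culture or an RNA sample. Symbols were matched for 21819 identifiers, with positions and types from GENCODE M21 (GRCm38) and promoters from RefSeq.

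Values were log2-transformed after adding 1, which understates changes of low genes, so fold changes are on that scale. Genes reaching 10 in 2 libraries or more were fitted with limma 3.58.1 (R 4.3.3, variance trend, 4 groups, all 11 libraries), with two-sided tests and Benjamini-Hochberg adjustment over all 14729 genes. Residual degrees of freedom were 7 and the median SE was 0.10. Rose and fell are used at an adjusted p under 0.05. On simulated data the fit recovered 81.3% of 91 genes shifted by 0.5 and 97.2% of 109 shifted by 1, with 11 false calls. Count tests on recovered reads were alternatives: edgeR 4.0.16 (quasi-likelihood) called 441 risen and 130 fallen genes, and DESeq2 1.42.0 called 485 and 182. Printed per-library values are rounded to 4 significant digits at most, and 1 read was worth 0.908 to 1.25 normalized reads in the knockout libraries.

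Named genes were Arntl; the 12 largest rises and 12 largest falls among called genes whose higher group averaged 50 or more, with groups apart and no predicted symbol; up to 4 called members of each of 47 lists by adjusted p, with uncalled members needed to account for a list; and up to 8 risen and 8 fallen genes outside the lists by adjusted p. The comparison, members and lists were chosen with earlier results of these data known. Among 18 RNA splicing genes none was called, and among 12 death and survival genes 2 rose, Bnip3 and Bcl2 (0.30, adjusted p = 0.0449, lost on leaving out any 1 knockout library, adjusted p 0.0747 to 0.135). None of 3 Schwann cell markers was called. Alternatives changed the pseudocount, filter, scaling, variance trend, test, depth and libraries.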

Additional observations from a re-analysis of the deposited data

Results flagged for a closer look

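The identifier that differed between genotypes is 1 of 2 entries named Gm23925 that overlap on chromosome 2, minus strand (GRCm38). The snoRNA entry (ENSMUSG00000064405, bases 158359798 to 158359929) had 0 normalized reads in all 3 knockout normoxia libraries and 31.0, 28.2 and 16.4 in knockout hypoxia, at least 7.05-fold higher against a floor of 3 reads per library. In wild-type cells it had 37.5 and 35.4 in normoxia and 26.4 to 44.8 in hypoxia. The difference between the genotypes' changes was 4.74 on the log2 scale (limma, adjusted p = 0.00368), a fitted value that depends on the pseudocount. The lincRNA entry (ENSMUSG00000100992, bases 158359797 to 158359928) moved the other way, from 65.8, 102 and 94.4 to 30.1, 27.2 and 16.4 in knockout cells. In wild-type cells the lincRNA entry had 35.33 and 34.25 in normoxia and 25.65 to 42.89 in hypoxia. The 2 entries thus had similar values in every library outside knockout normoxia, where all reads were on the lincRNA entry. They summed to 65.8, 102 and 94.4 in knockout normoxia and to 61.1, 55.4 and 32.8 in knockout hypoxia, so the sum was lower in hypoxia. The log2 change of the sum was -0.83 in knockout and -0.07 in wild-type cells. The difference called for the snoRNA entry was therefore not seen as a rise of the sum. Why the reads were split otherwise in knockout normoxia was not tested.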

How the results depend on the processing

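Counts of calls moved with some choices. Without a variance trend 288 genes rose and 63 fell; scaling without mitochondrial genes gave 244 fallen. Leaving out 1 library gave 304 to 479 risen and 64 to 134 fallen genes; the lowest counts came from leaving out any knockout library but normoxia library 3, and which choices of library matter for a named gene is given beside it. With the difference between genotypes, the count upward was 0 with a pseudocount of 5, with a filter of at least 50 in 3 libraries and with edgeR, and 4 with DESeq2, which also gave 1 downward; leaving out 1 library gave 1 to 2 upward and 0 to 1 downward. Of 142 named genes with a call, none reversed under any alternative, 99 kept the call under all and 43 lost it under at least 1. Of 22 named genes without a call, 5 passed under at least 1 alternative (Per1, Pax7, Ppp1r3c, Hist1h1a and Rrm2b). Differences near 0 changed sign: Myod1 was -0.023 with scaling without mitochondrial genes, and on leaving out 1 library it ranged from -0.039 to 0.041, Hif1a from -0.041 to 0.042, Epas1 from -0.459 to 0.119 and Nr1d1 from -0.143 to 0.188. The cause was not tested. Groups of 3 libraries and low counts limit what can be seen: genes under about 20 normalized reads, such as Epas1, have wide intervals. No paired analysis was possible because the labels give no replicate numbers linking libraries.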
